A study of Mus with 8 samples.

Results

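The regions described here are weak C/EBPβ binding sites that were listed 4 h after adipogenic induction in Prep1 down-regulated 3T3-L1 cells and in no other condition. 3T3-L1 is a mouse preadipocyte line that turns into adipocytes in culture. P cells carried a lentiviral shRNA against Prep1 and C cells a scrambled shRNA, and both had been selected in puromycin after infection. At day −2 the cells were not induced. The 4 h cells had received dexamethasone, 3-isobutyl-1-methylxanthine and insulin together. ChIP-seq with a C/EBPβ antibody gave 1 peak list for each of these 4 conditions, from 1 ChIP library called against 1 input library (8 samples). There were no replicates, so no test between conditions was possible and the intervals given here cover counting error only.

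Peaks of the 4 lists were merged wherever they overlapped by 1 bp or more, which gave 28658 regions. Of these, 15022 (52.4%) had a peak in P cells at 4 h alone. Members were selected on the −log10 p that the peak caller gave the P peak, with values under 30 taken, and this left 13588 regions. They made up 90.5% of the regions found in P cells at 4 h alone and 50.9% of all 26711 regions with a P peak at 4 h. Presence in the P list, absence from the other lists and peak strength are thus the rule itself and not findings. Each member held exactly 1 peak, so its values come from 1 library, and in the other 3 lists a member has no value. A missing peak means that no peak passed the caller's threshold in that library, and not that binding was absent.

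C/EBPβ is a basic leucine zipper transcription factor that is induced within hours of the hormone cocktail and binds as a dimer to enhancers that later serve Pparγ and C/EBPα, the factors of the mature adipocyte programme. Prep1 is a homeodomain protein of the TALE class that binds DNA with Pbx partners. A ChIP-seq peak is a place where immunoprecipitated fragments pile up over the level of input chromatin. Its strength here is the −log10 p that the peak caller gave to the fragments against that level.

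The depth derived from the genome-wide background of the 4 libraries was 7.82 to 7.85 M reads. The fragment length taken from the narrowest peak was 159 bp in P cells and 164 bp in C cells at 4 h. Of the members, 2029 (14.9%) were narrower than the narrowest C peak at 4 h, and without such P peaks 11559 members were left.

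In strength, members were mostly well above the threshold of the peak caller, whose −log10 p was 5. Their −log10 p ran from 5.05 to 29.98, with a median of 14.6 and quartiles of 11.3 and 18.9. Under 10 were 1869 members (13.8%), and of all weak P regions, which have the same upper limit, 11.4%. Of the members, 53.5% were under 15, 78.2% were under 20, and 1127 (8.29%) were at or over 25. All 13588 had a q-value under 0.01. Fold enrichment, which divides the ChIP fragments at the summit by the background there after 1 is added to each, had a median of 8.98 and quartiles of 7.49 and 10.8. The extremes of fold enrichment were 1.68 and 16.1.

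**Figure D1:**
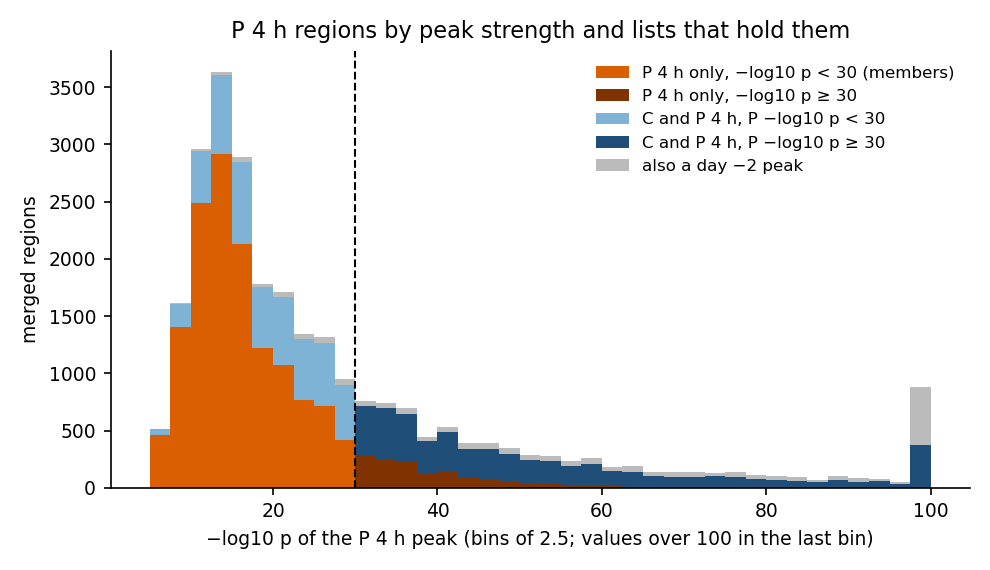
Merged regions with a P peak at 4 h, by the −log10 p of that peak (horizontal axis, bins of 2.5) and number of regions (vertical axis), with colours for the lists that hold them. The dashed line marks the limit of 30. Members fill most of the lower bins, and above the limit the regions found in P cells alone are fewer, at 1434 against 4966 shared ones. Values over 100 stand in the last bin.

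The share of P regions that were found in P cells at 4 h alone fell from bin to bin of strength. It was 87.8% (95% exact binomial interval 86.4 to 89.2) at a −log10 p of 5 to 10, 81.9% (81.0 to 82.8) at 10 to 15 and 71.8% (70.5 to 73.1) at 15 to 20. It was 60.3% (58.6 to 62.1) at 20 to 25 and 49.7% (47.7 to 51.8) at 25 to 30. Past the limit it went on falling, to 33.3% at 30 to 40, 21.3% at 40 to 50 and 8.54% at 50 to 75. The share thus fell on both sides of the limit of 30. In the C list at 4 h, the share of regions found there alone was lower in each bin, at 30.6% (28.4 to 32.8) for 5 to 10, 23.0% for 10 to 15 and 3.16% for 25 to 30. The mirror class, weak regions of C cells at 4 h alone, held 1864 regions (17.5% of the weak C regions), against 72.6% of the weak P regions that were members. The P list at 4 h held 26713 peaks and the C list 13525, so a C region had more peaks of the other list to overlap, and these shares depend on the lengths of the lists. Peaks of the mirror class had a median −log10 p of 11.5, a median fold enrichment of 7.38 and a median of 12 fragments. The −log10 p was not scored alike in these lists. Fragments carried a ChIP scaling of 0.999 in P cells at 4 h and of 1 in C cells at 4 h. The same fragments over the same background thus scored lower in P cells. Equal bins and the limit of 30 therefore do not stand for equal fragments in the P and C lists. The part of this scaling in the shares was not tested.

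Fragment numbers give the most direct view of these sites. Fold enrichment and −log10 p together fix how many whole ChIP fragments covered a summit and what input background they were set against. Members had a median of 16 fragments (quartiles 13 and 20, range 6 to 132) over a median background of 0.954 fragments (quartiles 0.636 and 1.00). At the background of each member, the fewest fragments that pass the p threshold had a median of 8. Members lay a median of 8 fragments above that number (quartiles 5 and 11), and 3685 of them (27.1%) lay at most 5 above it. The most frequent pair was 15 fragments over a background of 1.00, with a fold enrichment of 7.99 and a −log10 p of 12.5, found at 351 members. Next came 17 fragments over the same background, with a fold enrichment of 8.99, at 338 members. The 13588 members took 981 distinct pairs of fragments and background, so many share the same values to the last digit.

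**Figure D2:**
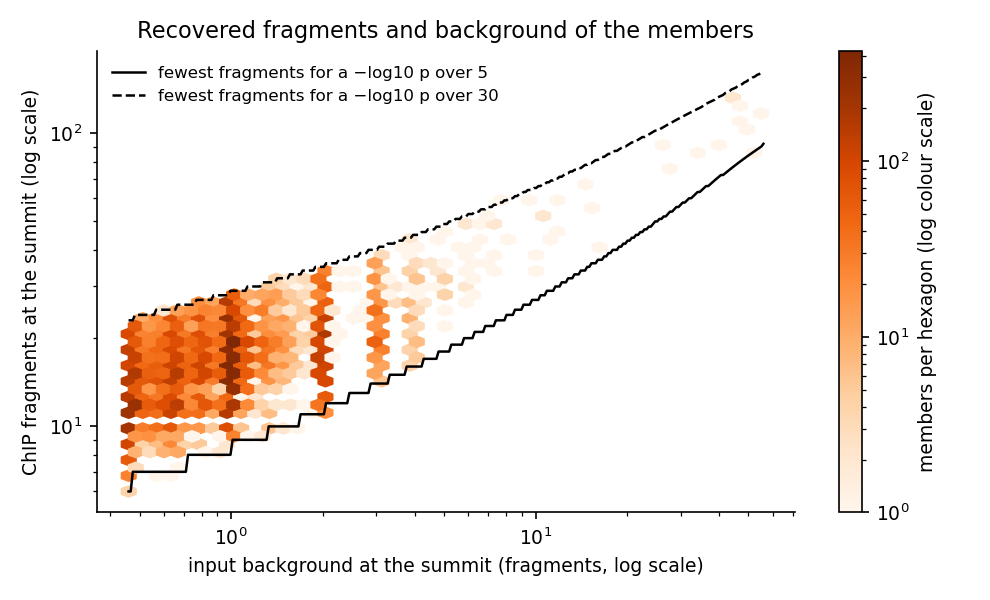
ChIP fragments at the summit (vertical axis, log scale) against input background in fragments (horizontal axis, log scale) for the 13588 members, with colour for members per hexagon. The solid and dashed lines are the fewest fragments for a −log10 p over 5 and over 30, and members fill the band between them, with quartiles of 13 and 20 fragments and a background of 0.636 and 1.00.

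P peaks held more fragments than C peaks at sites that both cell types had. Over the 9787 regions with a peak in both 4 h lists and none at day −2, the median ratio of P to C fragments was 1.62. It was 1.35 for the 4821 with a P peak under a −log10 p of 30 and 1.92 for the 4966 others, and this split uses the P fragments themselves. All these regions are selected for enough fragments in both libraries. With the fragments of each member divided by 1.62, cut to a whole number and set against its own background in P cells, 10.7% of the members came under a −log10 p of 5. With 1.35 it was 2.66%. The divided fragments were scored without the ChIP scaling of 0.999 that the P list carries. With that scaling the scores would be lower, and these shares could only be higher. They describe P fragments rescaled in this way and do not give the C signal at members, which was not analysed here.

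Around the limit, members and the regions just outside it had nearly the same −log10 p from different fragment numbers and backgrounds. The strongest member lay on chromosome 2 from 73347474 to 73347985, with 27 fragments over a background of 0.874 (fold 14.9, −log10 p 29.98). Next came members with 28 fragments over a background of 1.00 (fold 14.5, −log10 p 29.90), such as that on chromosome 1 from 78706645 to 78706877. With the same values, the member on chromosome 1 from 114348263 to 114348510 lay 1968103 bp from the nearest C peak at 4 h, and that from 162079403 to 162079789 only 31740 bp. The 4 regions just outside had 23 fragments over a background of 0.477 (fold 16.2, −log10 p 30.005). They lay on chromosome 11 from 26287138 to 26287372, chromosome 13 from 47811669 to 47811888, chromosome 14 from 116244898 to 116245231 and chromosome 2 from 56845259 to 56845500. Regions outside the limit could thus hold fewer fragments than members inside it, since a lower input background raises the −log10 p.

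At the other end, 4 members had the lowest −log10 p, 5.05, each from 6 fragments over the genome background of 0.461. They were on chromosome 13 from 79503469 to 79503752, chromosome 15 from 74764675 to 74764894, chromosome 4 from 73933830 to 73933988 and chromosome X from 133847687 to 133847934. Members at the median −log10 p of 14.6 had 14 fragments over a background of 0.572, with a fold enrichment of 9.53. Of these, that on chromosome 1 from 75165097 to 75165257 had a C peak 524 bp away from summit to summit, and that from 123068913 to 123069098 had none within 75385 bp. The highest fold enrichment, 16.1, belonged to members with 23 fragments over a background of 0.493. They were on chromosome 10 from 68170346 to 68170564, where the nearest C summit was 1933 bp away, and on chromosome 14 from 117726594 to 117726820, where it was 83262 bp away.

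The median input background at members was 2.07 times the genome background. This background is the highest of several estimates, the genome-wide mean among them, so it cannot fall under that mean. A single input fragment over the summit already gives 2.17 times, so these ratios do not show enriched input at the sites. Weak shared regions are those with a peak in both 4 h lists, none at day −2 and a P peak under 30. The median was 2.17 times at these and at the stronger shared regions, and 1.88 times at the stronger regions of P cells alone. Of the members, 15.5% (14.9 to 16.1) had at least 3 times. Among weak shared regions this share was 26.4% (25.1 to 27.6), and these intervals did not overlap. Among the stronger regions of P cells alone it was 10.8% (9.25 to 12.5). The source of the background was inferred from its recovered value, and a value that fits several windows was given to the smallest. By this rule it fitted input fragments over the summit itself at 38.8% of the members and the surrounding 1 kb at 26.8%. It fitted the surrounding 10 kb at 25.2% and the genome-wide mean at 9.21%. At 3511 members (25.8%) the value fitted 1 input fragment over the summit.

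A small set of members had a high background. With a limit of 10 times the genome background, chosen after the values were seen, it held 61 members (0.449%), of which 40 lay on chromosome 10 between 106643116 and 118029972. Their median fold enrichment was 4.83 although they had a median of 42 fragments. The highest background, 119 times that of the genome, belonged to a member on chromosome 10 from 117145808 to 117146169, where 112 fragments stood over 55.0 and gave a fold enrichment of 2.01. The next highest, from 117041202 to 117041415, had 106 fragments, a background 109 times that of the genome and a fold enrichment of 2.10. The lowest fold enrichment of any member, 1.68, was also there, from 116884464 to 116884623, with 85 fragments when 84 were needed. Such backgrounds were not particular to members. The highest was 161 times among weak shared regions, 180 among stronger shared regions and 130 among stronger regions of P cells alone. Among weak regions of C cells alone it was 175 times the genome background of that library. At the other end, 1251 members had the genome background itself. Of these, the member on chromosome 1 from 9721489 to 9721681 had 20 fragments (fold 14.4) and that from 11023754 to 11023928 had 11 (fold 8.20).

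Member peaks were narrow, with a median width of 205 bp (quartiles 174 and 248). At 20.4% of the members (19.8 to 21.1) the width was within 10 bp of the shortest possible, against 9.40% (8.59 to 10.3) of the weak shared regions. Their median width was 234 bp, and that of the stronger regions of P cells alone was 282 bp. At equal strength members were also narrower in each of 5 bins, with medians of 184 and 197 bp at a −log10 p of 10 to 15 and 248 and 264 bp at 25 to 30. The rule itself favours narrow members, since a narrower peak is less likely to overlap a peak of another list. Members also had fewer fragments in each bin, with medians of 14 and 15 at 10 to 15 and 25 and 26 at 25 to 30. The part of either in the widths was not tested. The summit lay near the middle, at a median of 48.6% of the width. The widest member, on chromosome 16 from 92275260 to 92276229, measured 970 bp and had 27 fragments at its summit. Next was a member on chromosome 10 from 121274054 to 121274982, which measured 929 bp with only 13. At the narrow end, 1499 members had the shortest width of 159 bp, such as those on chromosome 1 from 6277401 to 6277559 and from 6312970 to 6313128.

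The next question was where members lie relative to the sites that C cells had at 4 h. The rule asked only that they do not overlap. The median distance from a member's summit to the nearest C summit was 32369 bp (quartiles 9724.5 and 87294.5 bp), with 1 member on a contig without a C peak. Within 1 kb of a C summit were 4.06% of the members, within 10 kb 25.4% (24.7 to 26.2) and within 100 kb 78.1%. Over all 26711 P regions, 29.0% had another C peak within 10 kb. Weak shared regions, measured to the nearest other C summit, had a median distance of 23754.5 bp, and 32.4% (31.1 to 33.7) had another C peak within 10 kb. The stronger regions of P cells alone resembled the members in this, at 25.2% (23.0 to 27.6), and the stronger shared regions were at 34.8% (33.4 to 36.1).

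**Figure D3:**
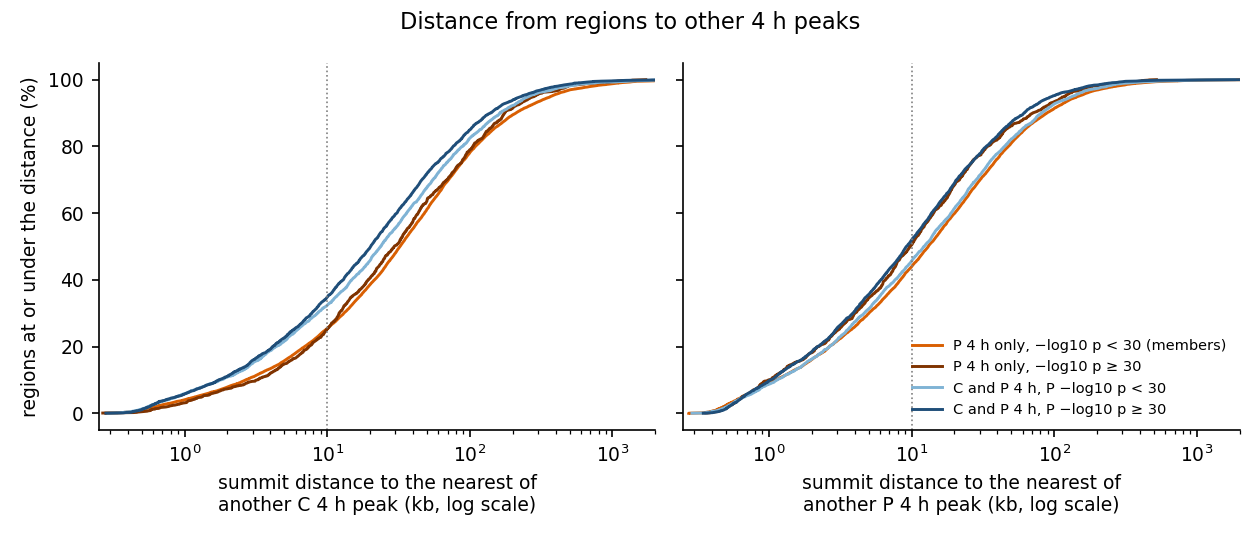
Cumulative share of regions (vertical axis, percent) by summit distance in kb (horizontal axis, log scale) to the nearest other C peak at 4 h (left) and the nearest other P peak at 4 h (right). The dotted line marks 10 kb, where on the left 25.4% of the members and 32.4% of the weak shared regions have been reached, and on the right 43.9% and 45.6%.

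The difference was also seen at equal strength, where members less often had a C neighbour than weak shared regions in each of the 5 bins of −log10 p. The shares within 10 kb were 25.4% and 32.3% at 5 to 10, with overlapping intervals. They were 25.3% (24.2 to 26.5) and 31.6% (29.0 to 34.4) at 10 to 15, and 24.5% (23.1 to 26.0) and 30.7% (28.2 to 33.4) at 15 to 20. They were 28.0% (26.0 to 30.2) and 35.1% (32.3 to 37.9) at 20 to 25, and 24.5% (22.0 to 27.1) and 32.2% (29.4 to 35.2) at 25 to 30. In the last 4 bins the intervals did not overlap. Regions of 1 library share its depth and background, so this is a description of these libraries and not a test.

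Neighbours in the P list itself were about equally frequent at members and weak shared regions. Within 10 kb of another P peak at 4 h were 43.9% of the members (43.1 to 44.7) and 45.6% of the weak shared regions (44.2 to 47.0), with overlapping intervals. Over all P regions the share was 46.4%. The stronger regions were above the members, at 50.5% (47.9 to 53.1) for those of P cells alone and 51.9% (50.5 to 53.3) for the shared ones. In the bin of 10 to 15 members were above the weak shared regions, at 43.6% and 41.1%, and in the other 4 bins below them. When the nearest other P peak of a member lay within 10 kb, it was itself a member in 50.2% of cases (49.0 to 51.5), close to the 50.9% of members among all P peaks. For weak shared regions the nearest such peak was a member in 43.1% (41.1 to 45.3).

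**Figure D4:**
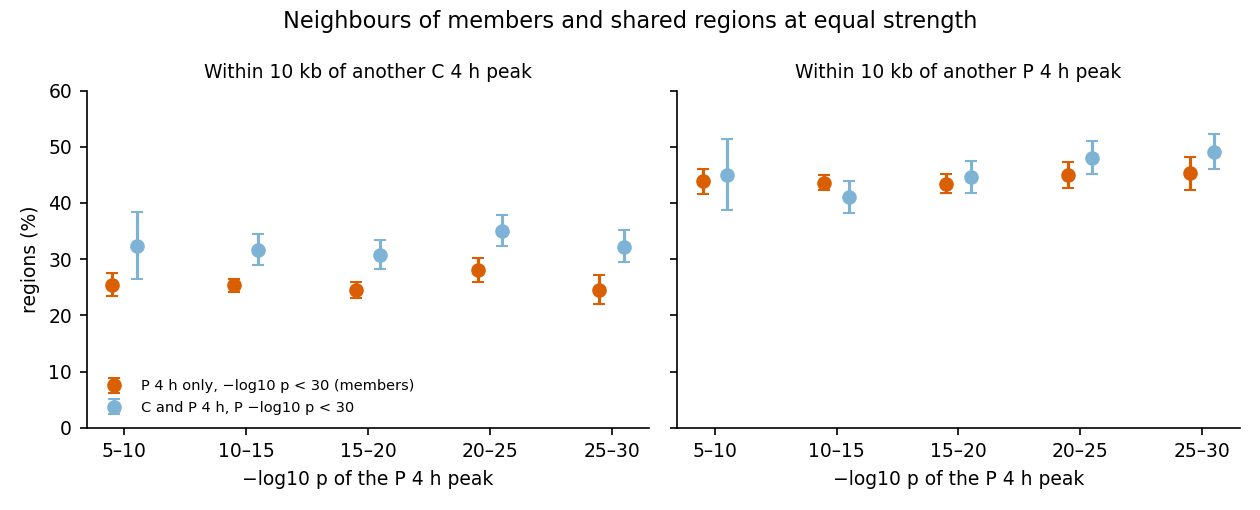
Share of regions (vertical axis, percent) within 10 kb of another C peak (left) and another P peak (right) at 4 h, in bins of −log10 p (horizontal axis), for members and weak shared regions. Bars are 95% exact binomial intervals. On the left members are lower in each bin, at 24.5% to 28.0% against 30.7% to 35.1%, and on the right the bars overlap in all bins.

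By distance to the nearest C summit, the median −log10 p of the members, a value that the rule itself keeps under 30, was 14.5 for the 551 members within 1 kb of a C summit, 14.7 for 2906 members at 1 to 10 kb, 14.8 for 7158 at 10 to 100 kb and 14.4 for 2810 at 100 to 1000 kb. It was 13.6 for the 162 members farther away, where the median background was 0.517 against 1.00 for the nearest. The closest pair was on chromosome 15, where the member from 9002934 to 9003106 had its summit 281 bp from a C summit without overlap of the peaks. On chromosome 2, the members from 75606498 to 75606656 and from 66346221 to 66346394 lay 286 and 290 bp from a C summit. The farthest were all on chromosome X. The member from 85421680 to 85421934 had 18 fragments over the genome background (fold 13.0, −log10 p 22.1) and lay 4228783 bp from the nearest C summit. Those from 85359530 to 85359695 and from 84844494 to 84844667 had 11 and 12 fragments and lay 4205667 and 3690645 bp away.

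Peaks listed before induction were compared next. A P peak of day −2 lay within 10 kb of 4.34% of the members (4.01 to 4.70), 4.92% of the weak shared regions (4.32 to 5.56) and 4.53% of the stronger regions of P cells alone (3.52 to 5.74), with overlapping intervals. The stronger shared regions were above the members, at 5.70% (5.07 to 6.38). Within 100 kb it was 24.5% of the members (23.8 to 25.2). The stronger regions of P cells alone were at 27.1% (24.8 to 29.5), an interval that overlaps that of the members. The stronger shared regions were at 29.7% (28.5 to 31.0). A C peak of day −2 lay within 100 kb of 13.1% of the members (12.5 to 13.7), 16.2% of the weak shared regions (15.2 to 17.3) and 12.6% of the stronger regions of P cells alone (10.9 to 14.5). For the stronger shared regions this share was 16.8% (15.7 to 17.8). Over all P regions at 4 h, 30.7% had a P peak of day −2 within 100 kb, and this count includes regions that overlap one, which the rule keeps out of the members. Weak shared regions, which also have no day −2 peak, stood at 27.2% (26.0 to 28.5).

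Members were spread over the whole genome. In windows of 1 Mb, 2142 of the 2269 windows that held any region held a member, with a median of 5 members (quartiles 2 and 8). The fullest 502 windows (22.1%) together held as many members as all the others. The number of members went with the number of C regions at 4 h in the same window (Pearson's r = 0.68 and Spearman's rho = 0.68 over 2269 windows). Windows share libraries and the uniquely mappable part of the genome, so this is a description with no p. The fullest window, on chromosome 16 from 24000001 to 25000000, held 34 members and 30 C regions. Next was chromosome 6 from 17000001 to 18000000, with 31 members and 35 C regions. On chromosome 16 from 86000001 to 87000000 the balance was different, with 29 members and 14 C regions. The 246 windows without any C region at 4 h held 518 members (3.81%). Only windows with some region were counted, so most of these had to hold a P region at 4 h. The fullest of these held 8, among them chromosome 16 from 46000001 to 47000000.

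Members were also joined into runs wherever the gap to the next member was under 10 kb, with P regions of other classes left out of account. By this rule 9809 members stood alone, and 3779 (27.8%) fell into 1675 runs, 78 of which held 4 or more. No share of another class stands beside these counts, and members were 50.9% of all P peaks, so they do not show that members cluster. The longest run was on chromosome 8 from 80545451 to 80578009. It held 8 members in 32559 bp, with no region of another class and no C region inside. From left to right their fragments numbered 14, 13, 22, 28, 13, 15, 34 and 11. The fourth and the seventh had a −log10 p of 29.9 and 29.1, and the other 6 had 7.53 to 13.9. A pair of members just under the limit of 30 thus stood among weaker ones.

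By chromosome, the share of weak P regions that were members ran from 65.3% (62.1 to 68.4) on chromosome 5 to 78.1% (75.01 to 80.93) on chromosome 16 among the autosomes, with a median of 72.6%. On chromosome X it was 79.3% (75.6 to 82.7), with 410 members. Its interval lay above those of 9 of the 19 autosomes and overlapped those of the other 10, chromosomes 10 and 16 among them. As a share of all P regions at 4 h, members made up 61.7% (57.84 to 65.37) on chromosome X, above the intervals of all 19 autosomes, whose highest upper bound was 57.80%. Relative to the C list, chromosome X had 1.63 members for each C region at 4 h, and the autosomes between 0.753 on chromosome 5 and 1.28 on chromosome 10. On chromosome X the input background was also lowest. The median input background of members on chromosome X was 1.00 times the genome background, and on autosomes 1.42 to 2.24 times. Across the 19 autosomes, the share of weak P regions that were members was likewise higher where this background was lower (Pearson's r = -0.44, Spearman's rho = -0.54). The chromosomes share the libraries, so this is a description with no p. Chromosome 16, with the highest share, went against it at 2.07 times. Members on X had a median of 14 fragments and a median fold enrichment of 9.45, and the autosomes had 15 to 18 fragments and 8.51 to 9.08. In C cells at 4 h the background was likewise lowest on X, at 1.03 times against 1.61 to 2.19 times. The part of the input background in these shares was not tested. The other 10 members lay on 4 contigs outside the autosomes and chromosome X.

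**Figure D5:**
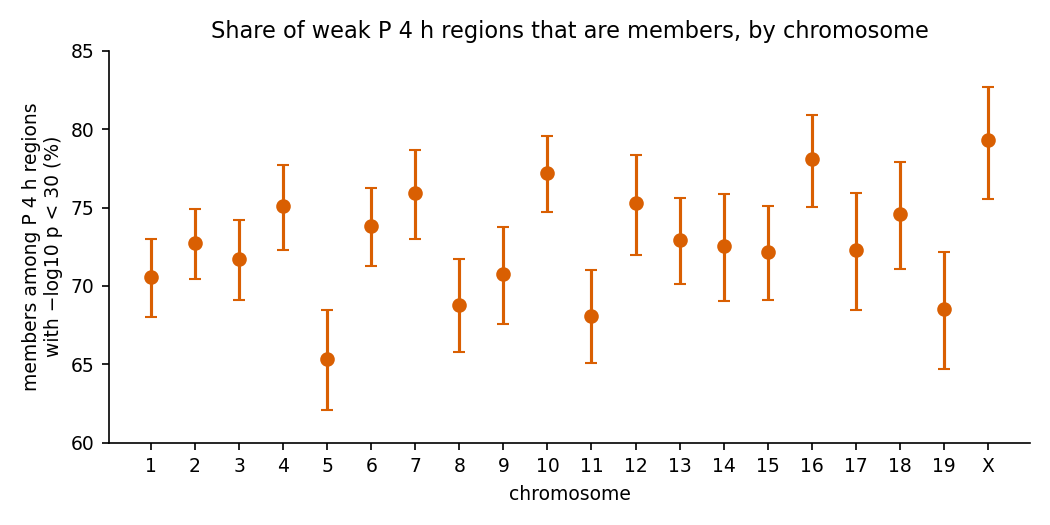
Members as a share of P regions at 4 h with a −log10 p under 30 (vertical axis, percent, from 60 to 85) on each chromosome (horizontal axis). Points are shares and bars 95% exact binomial intervals, with chromosome 5 lowest at 65.3% and chromosome X highest at 79.3%.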

How the data were processed

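C/EBPβ ChIP-seq and input chromatin of C and P cells were sequenced by the authors on an Ion Torrent instrument. Per the labels and the study's methods, reads were aligned to mm9 with Bowtie 0.12.8, unique alignments were kept, duplicates were removed, mapped reads were brought to the same number and peaks were called with MACS2 2.0.10.20131028, each ChIP against its own input. The deposited fold enrichment is a ratio at the summit, and the deposited −log10 p and −log10 q are those of the authors' peak caller.

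Peak lists were handled in Python 3.11.15 (numpy 2.4.6, pandas 2.3.3). Fragments and background at each summit were recovered as the whole number of fragments whose Poisson p (scipy 1.17.1) matches the deposited −log10 p, after a ChIP scaling of 0.999 in P cells at 4 h. The match was within 0.001 for 100% of peaks. Depth was derived from the genome background with a genome size of 2.7e+09 bp. Recovery, merging and distances were tested on simulated data. Shares have 95% exact Clopper-Pearson intervals. Distances run from summit to summit, and for shared regions to the nearest other peak. Figures were drawn with matplotlib 3.10.9.

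The members and comparisons were chosen with earlier results of these data known. Named regions are those at the extremes and at the median of −log10 p, fold enrichment, width, background and distance to a C peak, ties by chromosome and start, and the 4 regions just outside the limit. The peak names inside the lists carry hour tags that differ from the labelled times, and the labels were followed. By these labels the lists held 838 peaks (C) and 1653 (P) at day −2, and 13525 (C) and 26713 (P) at 4 h. These numbers are equal or close to those that the paper gives for the same conditions. Coordinates are mm9, counted from 1. Sequences, motifs and genes were not analysed here, since the gene table at hand is of another build.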

Additional observations from a re-analysis of the deposited data

How the results depend on the processing

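Of 33 values recomputed for 6 results under 12 settings, 24 moved by less than their counting interval (for the number of members, by less than 1.5 times) and 9 by more. The number of members ran from 10621 with a limit of 20 to 14823 with a limit of 50. A −log10 p of at least 10 in every list gave 12527 members, and leaving out the day −2 lists, a setting chosen after seeing the data, gave 13674. The share of weak P regions that were members was 79.3% with a limit of 20 and 64.4% with a limit of 50, since stronger regions are more often shared. It was 75.6% with a −log10 p of at least 10 in every list and 70.7% when P peaks under the smallest C width were dropped. The median fold enrichment was 8.32 with a limit of 20, 9.17 with a limit of 50 and 9.46 when peaks under a −log10 p of 10 were dropped, all by construction. With a −log10 p of at least 10 in every list, 23.4% of the members lay within 10 kb of a C peak. Both the members and the C peaks change in this setting, and the cause was not tested. The difference from weak shared regions in that share was 6.94 percentage points (5.44 to 8.46). It was 5.21 (3.61 to 6.84) when peaks under a −log10 p of 10 were dropped and 7.33 without chromosomes 10 and X, and these settings were chosen after seeing the data. The q-value setting removed no member, so it says nothing of stability. The planned motif alternatives were not run, since no sequence was read. No paired analysis was possible because each condition has 1 ChIP library. At 7.82 M reads, members had a median of 16 fragments, which limits what can be said of any single region.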
